A study of Mus musculus with 15 samples.

Results

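Tissue inhibitors of metalloproteinases (Timp), matrix metalloproteinases (Mmp) and their Adamts relatives were followed in RNA recovered with an antibody against Arid5a or with control IgG. The 10 genes were chosen by symbol, with earlier results of these data known. They were Timp1, Timp2, Timp3, Mmp2, Mmp3, Mmp13, Mmp14, Adamts1, Adamts4 and Adamts5, out of 25239 genes in the deposited tables. All 10 have a row, and 9 of them passed the filter on low counts; Mmp3 did not. The cells were ST2, a mouse stromal line of bone marrow origin, so that every library comes from 1 line. They received either medium or IL-17 at 200 ng/mL, lasting 3 h, and were then crosslinked with 1% formaldehyde. RNA immunoprecipitation (RIP) used the Arid5a antibody or mouse IgG2b, and stranded libraries were made from what was recovered. The 15 libraries form 4 groups, namely IgG RIP in medium (n = 4), Arid5a RIP in medium (n = 4), IgG RIP after IL-17 (n = 3, numbered 2 to 4) and Arid5a RIP after IL-17 (n = 4). No library of unprecipitated RNA was analysed here. The labels do not say whether replicates were separate cultures, so that p-values measure the spread between these samples, which may be technical.

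Matrix metalloproteinases are zinc enzymes, secreted or anchored in the membrane, that cut collagens and other matrix proteins. Adamts enzymes add thrombospondin repeats to a related catalytic domain, and several cleave the large proteoglycans aggrecan and versican. Timp proteins block the active sites of these enzymes, and stromal cells are a known source of both enzymes and inhibitors. IL-17 is a cytokine that drives inflammatory and matrix-remodelling genes in stromal cells, and Arid5a is an RNA-binding protein known to bind mRNAs of inflammatory genes.

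The 250 bases upstream of the start of Timp1, Timp2 and Timp3 are shown because these 3 inhibitor genes were called higher together after IL-17 in the Arid5a RIP. They come from RefSeq windows of GRCm38.p6, which mm10 corresponds to, and run 5′ to 3′ on the strand of the gene, with GC boxes (GGGCGG on either strand) in capitals. The windows lie at chrX:20869916-20870165 on the plus strand, chr11:118355412-118355661 on the minus strand and chr10:86300162-86300411 on the plus strand.
Timp1: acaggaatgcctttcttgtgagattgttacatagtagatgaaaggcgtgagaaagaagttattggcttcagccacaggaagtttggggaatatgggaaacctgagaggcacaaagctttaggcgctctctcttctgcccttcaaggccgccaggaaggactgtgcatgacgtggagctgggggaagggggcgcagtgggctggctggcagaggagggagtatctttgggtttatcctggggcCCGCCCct
Timp2: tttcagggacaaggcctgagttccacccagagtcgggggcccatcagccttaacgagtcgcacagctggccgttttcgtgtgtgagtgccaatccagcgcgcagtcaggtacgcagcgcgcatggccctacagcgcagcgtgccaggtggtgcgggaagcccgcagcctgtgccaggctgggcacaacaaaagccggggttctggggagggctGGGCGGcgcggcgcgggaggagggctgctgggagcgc
Timp3: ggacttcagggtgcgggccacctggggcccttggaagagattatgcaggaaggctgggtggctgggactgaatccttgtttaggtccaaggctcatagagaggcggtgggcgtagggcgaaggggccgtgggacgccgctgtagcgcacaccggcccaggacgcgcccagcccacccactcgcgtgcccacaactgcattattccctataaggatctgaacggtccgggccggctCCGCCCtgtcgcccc
Each of these windows holds 1 GC box, at 8 to 3 bases before the start in Timp1, 37 to 32 in Timp2 and 15 to 10 in Timp3. None of these windows holds an AP-1 (TGANTCA), NF-kB (GGANTTTCC) or C/EBP (TTGCNNAA) match on either strand. Of the 10 genes, 7 have a window in that table, and the remaining members are Mmp2, Adamts4 and Adamts5. The windows of Mmp3 and Mmp13 each hold 1 AP-1 match, and that of Mmp3 also holds 1 C/EBP match. GC boxes number 2 in Mmp14 and 3 in Adamts1. Among 32851 windows of the same length, 32.7% hold a GC box, 6.75% an AP-1, 1.07% an NF-kB and 9.56% a C/EBP match. A match describes letters and is not evidence of a site.

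Libraries held 939139 to 5713913 counts. Of 6 genes that IL-17 is known to induce (Cxcl1, Cxcl5, Ccl2, Ccl7, Nfkbiz and Zc3h12a), 6 were called higher after IL-17 in the Arid5a RIP and 6 in the IgG RIP. CPM means counts scaled to the library total after adjustment of that total by TMM factors. The 13 stromal markers summed to between 19268 and 30588 CPM in every library, although Dcn, Lum and Thy1 had at most 22 counts in any library. The 10 haematopoietic and macrophage markers summed to at most 38.4 CPM and the 10 endothelial and epithelial markers to 16.0 to 77.5 CPM. Transcripts of 1470 olfactory and vomeronasal receptors, silent in most tissues, summed to 3201 to 4697 CPM in Arid5a RIP in medium. They summed to 1961 to 3035 in IgG RIP in medium and 2325 to 3313 in IgG RIP after IL-17. In Arid5a RIP after IL-17 they stood at 1389 to 1785 in replicates 1 to 3 and at 4008 in replicate 4.

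The inhibitor transcripts had the highest means of the 10 over all libraries when scaled to length. FPKM, fragments scaled to the length of a gene and the size of a library and the unit used to compare levels between genes, averaged 232 for Timp1 over the 15 libraries (163 to 316). Timp2, which inhibits Mmp2 and takes part in its activation, averaged 130 (85.2 to 169). Timp3, the inhibitor that stays bound to the matrix, averaged 84.5 (45.1 to 148). The ranges of neighbouring inhibitors in this order overlapped, and that of Timp3 also overlapped those of Mmp14 and Adamts1. In IgG medium 4, Adamts1 (52.6 FPKM) was above Timp3 (51.3).

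Mmp14, the membrane-anchored enzyme that activates pro-Mmp2, averaged 49.8 FPKM (35.7 to 64.8). Adamts1, which cleaves versican, averaged 38.1 FPKM (27.4 to 52.6), within the range of Mmp14. Adamts5, a main aggrecanase of mouse cartilage, averaged 15.1 FPKM (9.5 to 22.5), below every library of Adamts1. The remaining enzymes were low: Adamts4, another aggrecanase, averaged 2.45 FPKM (1.04 to 4.45) and the collagenase gene Mmp13 2.29 (0 to 5.38). The gelatinase gene Mmp2 averaged 2.03 FPKM (0 to 3.41) and the stromelysin gene Mmp3 0.222 (0 to 1.44). The ranges of Adamts4, Mmp13 and Mmp2 overlapped one another, and Mmp3 had 0 counts in 8 of 15 libraries.

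**Figure D1:**
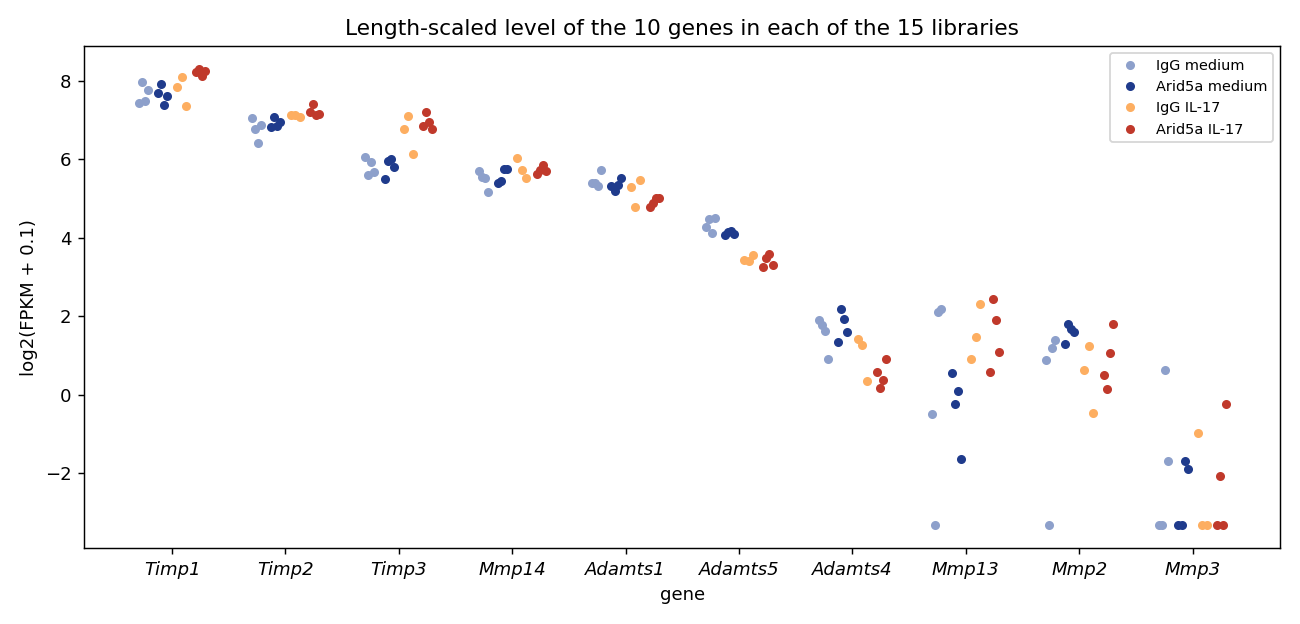
Length-scaled level of each gene in each of the 15 libraries, as log2(FPKM + 0.1), with genes ordered by mean FPKM and points coloured by group. Timp1 and Timp2 lie at the high end, Timp3 overlaps Mmp14 and Adamts1, and Mmp3, at 0 in 8 libraries, lies at the low end.

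Within the Arid5a RIP, IL-17 was accompanied by more Timp3, Timp1 and Timp2 RNA and less Adamts5 RNA. The Timp3 level rose 2.56-fold, Timp1 1.53-fold and Timp2 1.42-fold, while Adamts5 fell 1.40-fold. Of the 9 genes tested, 3 were called higher and 1 lower at a Benjamini-Hochberg adjusted p below 0.05 with edgeR, against 4.84% higher and 0.813% lower of all 17835 genes tested. Those shares stand for 863 genes higher and 145 lower, a split that scaling moves. Upper-quartile factors gave 202 and 119, library totals 156 and 145, factors taken from well-expressed genes 116 and 207, and DESeq2 804 and 563. With the factors from well-expressed genes, the members called were Timp3, higher, and Adamts1, Adamts4 and Adamts5, lower. Because the members were chosen with earlier results known, their share of calls in any comparison is a description and not a test against all genes. The median log2 fold over the 9 was 0.33, against -0.12 over all genes. It was 0.42 over the 6 members that are well-expressed, meaning an average log2 CPM of 5 or more, against 0.30 over all 5394 such genes. In bulk libraries fewer cells holding a transcript and less of it per cell cannot be told apart, and without unprecipitated RNA a change in recovery and a change in the cells cannot be told apart.

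Timp3 (chromosome 10, 86300412 to 86349505) stood at 194, 245, 251 and 236 CPM in Arid5a RIP in medium, replicates 1 to 4. After IL-17 the Arid5a RIP gave 582, 730, 600 and 466 CPM. All 4 stimulated libraries lay above all 4 in medium. This was a log2 fold of 1.36 ± 0.16 (SE) with an adjusted p of 5.07e-07. Timp3 was called under each of the 27 alternative settings and omissions run, with log2 folds of 1.04 to 1.45.

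With IgG, Timp3 stood at 300, 228, 302 and 222 CPM in medium and at 478, 592 and 333 in IL-17 replicates 2 to 4. The groups did not overlap here either. Timp3 thus had a log2 fold of 0.83 ± 0.17 (adjusted p = 0.0111), a 1.77-fold rise. That call was lost without IgG RIP after IL-17 replicate 2 (adjusted p = 0.0586) or replicate 3 (0.13, log2 fold 0.65). It was also lost with only the libraries compared in the fit (0.104) and on log2(FPKM + 1) (0.0966) or log2(FPKM + 0.1) (0.119).

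Timp1 (chromosome X, 20870166 to 20874737) encodes a secreted inhibitor of most Mmp enzymes. Its levels in the Arid5a RIP were 137, 149, 102 and 128 CPM in medium and 203, 205, 192 and 190 after IL-17. The stimulated libraries were close to one another and all above those in medium. The log2 fold was 0.62 ± 0.15 (adjusted p = 0.0124). With IgG, Timp1 stood at 122, 177, 135 and 139 CPM in medium and at 155, 170 and 119 after IL-17, with groups that overlapped. The log2 fold there was 0.06 ± 0.17 (adjusted p = 0.939), with a 95% interval of -0.26 to 0.39.

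Timp2 (chromosome 11, 118301061 to 118355411) stood at 371, 408, 350 and 402 CPM in Arid5a RIP in medium and at 558, 632, 516 and 465 after IL-17. All stimulated libraries were above those in medium, and the log2 fold was 0.50 ± 0.13 (adjusted p = 0.0172). The IgG RIP gave 457, 396, 320 and 387 CPM in medium and 466, 458 and 489 after IL-17. These groups did not overlap, but the lowest stimulated library was only just above the highest in medium. The log2 fold was 0.27 ± 0.14 (adjusted p = 0.480), with an interval of -0.01 to 0.55.

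The Timp1 and Timp2 calls in the Arid5a RIP depended on scaling and on single libraries. The adjusted p of Timp1 was 0.119 when upper-quartile factors were used and that of Timp2 was 0.168. Library totals gave 0.156 and 0.219. Factors taken from well-expressed genes gave 0.2 and 0.296. On log2(FPKM + 1) they were 0.0995 and 0.2, and on log2(FPKM + 0.1) 0.128 and 0.257. Timp1 was not called without Arid5a medium 3 (0.082), Arid5a IL-17 1 (0.0518) or Arid5a IL-17 2 (0.0563). Timp2 was not called without Arid5a medium 1 (0.0575) or 3 (0.0826), or without Arid5a IL-17 1 (0.0718) or 2 (0.122). Against the median of well-expressed genes in the same comparison, Timp3 was higher by 1.05 on the log2 scale, Timp1 by 0.31 and Timp2 by 0.20. Of 12 stromal markers tested, 6 were called higher in the same comparison (Col1a2, Col3a1, Col5a1, Fn1, Sparc and Vcam1), against 4.84% of all genes. Like those of Timp1 and Timp2, these 6 calls were lost under the other edgeR scalings and on FPKM. Leaving out Arid5a medium 3, Arid5a IL-17 1 or Arid5a IL-17 2 ended 5 of them, all but Fn1; over all single omissions the adjusted p reached 0.217. The summed stromal markers ranged from 19268 to 23519 CPM in Arid5a RIP in medium and from 21801 to 30588 after IL-17; their part in these results was not tested.

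**Figure D2:**
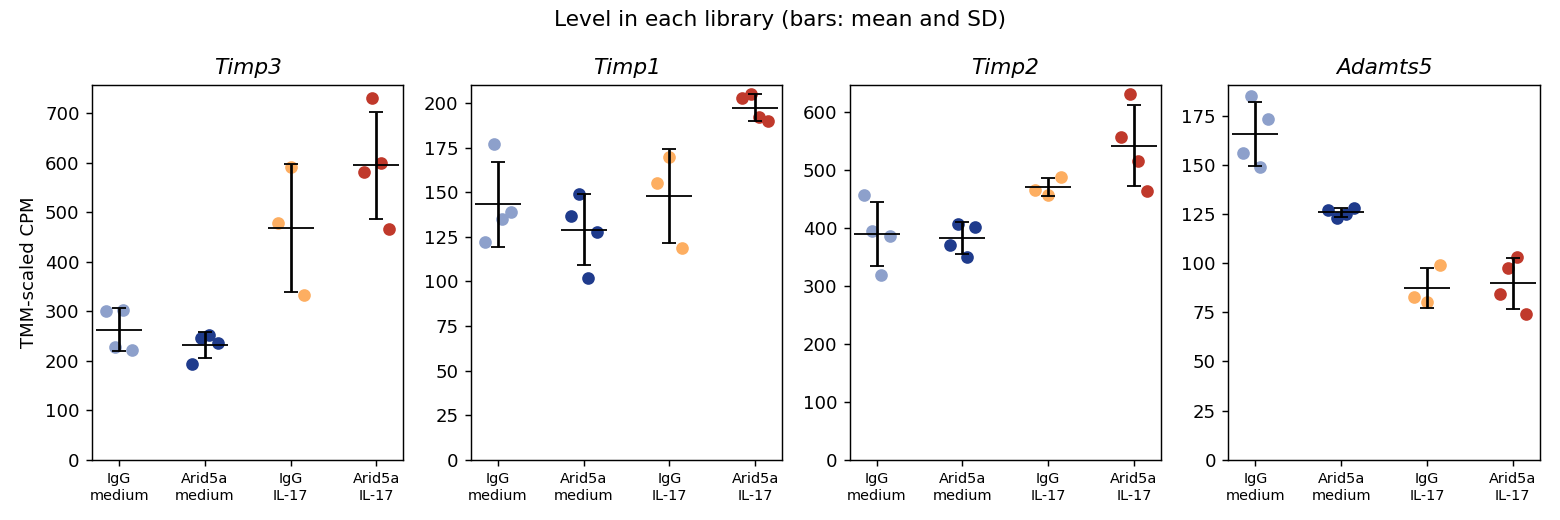
CPM of Timp3, Timp1, Timp2 and Adamts5 in each library by group, with bars for mean and SD. Timp3 is at 194 to 302 CPM in all libraries in medium and at 333 to 730 after IL-17, and Adamts5 is at 123 to 185 in medium and 73.9 to 103 after IL-17.

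Adamts5 (chromosome 16, 85858157 to 85901125) lies 55044 bases from its paralogue Adamts1. In the IgG RIP it stood at 156, 185, 149 and 173 CPM in medium and at 82.9, 80.2 and 99.1 after IL-17. Every stimulated library lay below every library in medium. The log2 fold was -0.92 ± 0.17 (adjusted p = 0.00263), a 1.89-fold fall. The call was lost in 1 of 27 alternatives, with only the libraries compared (adjusted p = 0.0789).

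In the Arid5a RIP, Adamts5 stood at 127, 123, 125 and 128 CPM in medium, a narrow spread, and at 84.5, 97.5, 103 and 73.9 after IL-17. These groups did not overlap. The log2 fold was -0.49 ± 0.15 (adjusted p = 0.0456). The value lay close to the threshold: the gene was called in 4 of the 15 fits that leave out 1 library and in 10 of the other 12 alternatives, all with a negative fold (-0.80 to -0.41). Leaving out any Arid5a RIP library, in medium or after IL-17, or any IgG RIP library after IL-17 ended the call, with adjusted p of 0.0555 to 0.163. It was also lost with no filter (0.0911). With library totals the adjusted p was 0.00185, and against the median of well-expressed genes Adamts5 was lower by 0.79 on the log2 scale.

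In the IgG RIP the count of called genes was 1 higher and 1 lower of 9 tested, against 0.258% higher (46) and 0.235% lower (42) of all genes; DESeq2 called 115 higher and 205 lower. The median log2 fold over the 9 was 0.06, against 0.00 over all genes. The IL-17 comparisons in the 2 RIPs share no library, but both come from 1 fit of all 15 libraries. Scaling and spread were estimated together there, so the 2 comparisons are not independent.

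**Figure D3:**
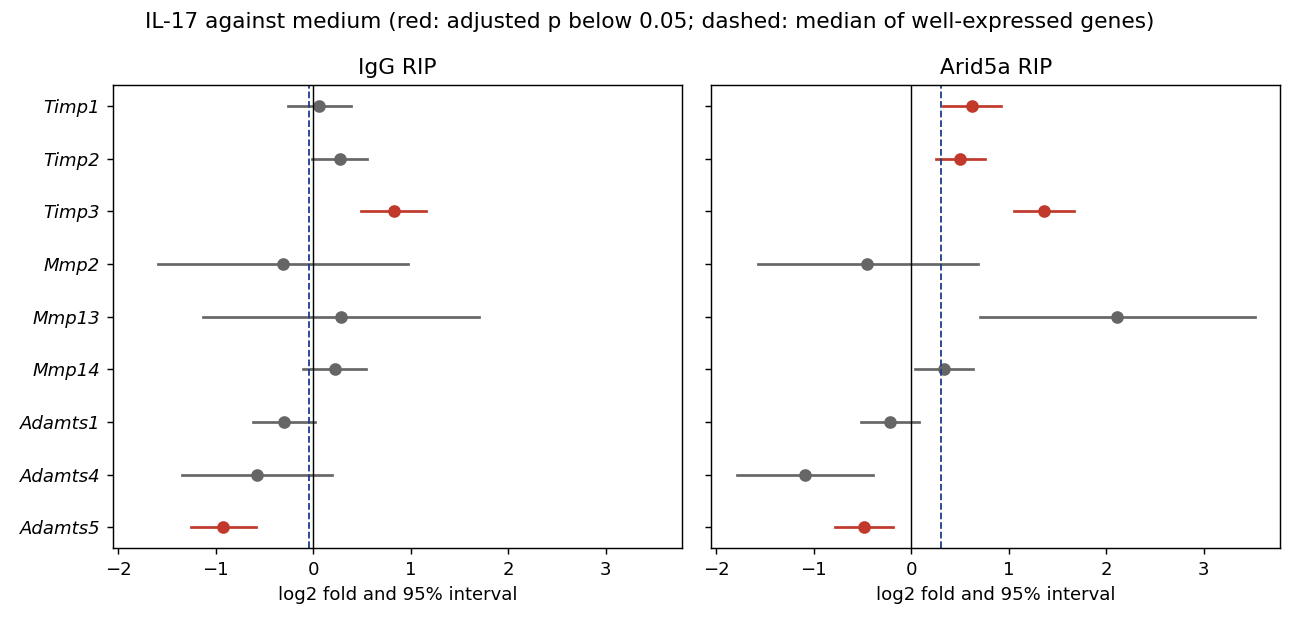
Log2 fold of IL-17 against medium with its 95% interval for the 9 tested genes, in the IgG RIP and the Arid5a RIP, with called genes in red and the median of well-expressed genes dashed. Timp3 is right of 0 and Adamts5 left of 0 in both RIPs, and Timp1 and Timp2 are called in the Arid5a RIP.

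The ratio of Timp3 to Adamts5 counts within a library needs no scaling between libraries; these genes were chosen for it after their values were seen, and it is given with no test. It was 1.93, 1.23, 2.02 and 1.29 in IgG RIP in medium and 1.53, 1.99, 2.01 and 1.85 in Arid5a RIP in medium. After IL-17 it was 5.76, 7.38 and 3.36 in the IgG RIP and 6.88, 7.48, 5.85 and 6.31 in the Arid5a RIP. The lowest stimulated library was above the highest library in medium. This follows from the CPM ranges of the 2 genes given above and adds no separate support.

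**Figure D4:**
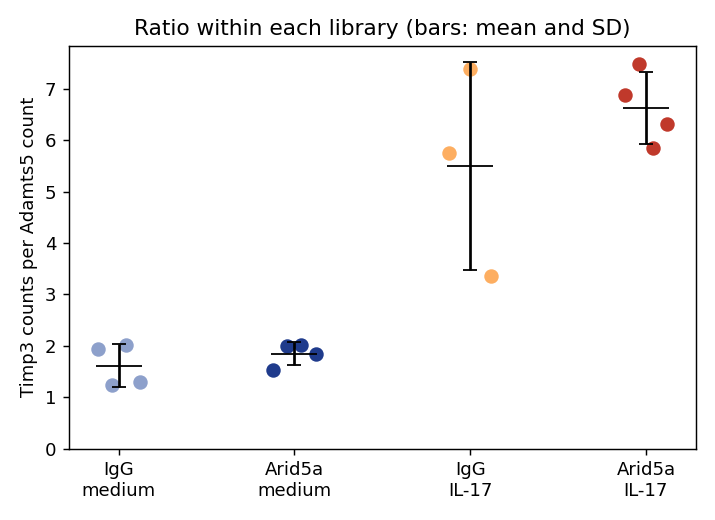
Timp3 counts per Adamts5 count in each library by group, with bars for mean and SD. Libraries in medium lie between 1.23 and 2.02, and those after IL-17 between 3.36 and 7.48.

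The other Adamts genes of the 10 were not called after IL-17 with the TMM-scaled edgeR fit. Adamts4 (chromosome 1, 171250129 to 171262267) stood at 14.3, 24.0, 19.9 and 16.8 CPM in Arid5a RIP in medium and at 9.64, 7.06, 8.04 and 10.5 after IL-17. The groups did not overlap, but at 31 to 66 counts per library the log2 fold of -1.09 ± 0.36 had an adjusted p of 0.0638. It passed the threshold in 9 of 27 alternatives, among them DESeq2 (0.0117), limma voom (0.00115) and edgeR with factors from well-expressed genes (0.0451). The fits without IgG medium 2 (0.0277), IgG IL-17 4 (0.0474) or Arid5a IL-17 4 (0.0372) also called Adamts4. Its log2 fold with IgG was -0.58 ± 0.39 (adjusted p = 0.621). Adamts1 averaged 175 ± 21.5 CPM (SD, n = 4) in medium and 151 ± 8.67 (n = 4) after IL-17 in the Arid5a RIP, with overlapping groups and a log2 fold of -0.22 ± 0.15 (adjusted p = 0.384). With factors taken from well-expressed genes its fold was -0.52 and it was called (adjusted p = 0.0463). Means with IgG were 212 ± 17.3 (n = 4) and 173 ± 47.1 (n = 3), a log2 fold of -0.30 ± 0.16 (adjusted p = 0.515).

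No Mmp gene was called after IL-17 with the TMM-scaled edgeR fit of all 15 libraries. Mmp13 (chromosome 9, 7272514 to 7283333) stood at 3.26, 1.65, 2.11 and 0.518 CPM in Arid5a RIP in medium (2 to 10 counts). After IL-17 it stood at 3.77, 14.4, 9.57 and 4.81 CPM (17 to 63 counts). The groups did not overlap, yet the log2 fold of 2.11 ± 0.72 had an adjusted p of 0.0751. It passed in 6 of 27 alternatives, among them limma voom (0.00306) and edgeR with only the libraries compared (0.0142). The edgeR fit without IgG medium 2 and IgG IL-17 4 together also called it (0.0124). So did those without IgG medium 2 (0.0243), IgG IL-17 4 (0.0497) or Arid5a IL-17 4 (0.0435). The IgG RIP showed no such separation: 1.55, 0, 11.6 and 10.6 CPM in medium and 4.28, 6.3 and 12.9 after IL-17, a log2 fold of 0.29 ± 0.72 (adjusted p = 0.935). The 0 in IgG medium 2, the library with the lowest total, allows up to 3.19 CPM (3 counts, for counting error only).

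Mmp14 averaged 159 ± 20.0 CPM (n = 4) in medium and 201 ± 18.8 (n = 4) after IL-17 in the Arid5a RIP. The ranges were 140 to 182 and 178 to 223, and the log2 fold of 0.33 ± 0.15 had an adjusted p of 0.184; limma voom called it (0.37, adjusted p = 0.0085). Means with IgG were 168 ± 29.6 (n = 4) and 194 ± 27.7 (n = 3), a log2 fold of 0.22 ± 0.16 (adjusted p = 0.674). Mmp2 had 0 to 33 counts per library, and its log2 folds were -0.45 ± 0.57 in the Arid5a RIP (adjusted p = 0.66) and -0.31 ± 0.65 in the IgG RIP (adjusted p = 0.92). Mmp3 (162489 bases from Mmp13) had 0 to 7 counts per library and was not tested, and a 0 allows 0.525 to 3.19 CPM depending on the library. The interval of Mmp2 in the Arid5a RIP ran from -1.57 to 0.68, so that neither a fall nor a rise within it was excluded.

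The comparison of antibodies asked whether Arid5a RIP recovered more of these transcripts than IgG. In medium none of the 9 was called, against 0.628% of all genes in either direction. Of all 17835 genes, only 10 were called higher in the Arid5a RIP and 102 lower. With so few genes called higher, the absence of a call among 9 members says little about recovery. With edgeR, 2 of the 9 had an unadjusted p below 0.05, against 2279 of all 17835 genes. Those 2 members were lower in the Arid5a RIP. Adamts5 averaged 126 ± 2.17 CPM (n = 4) against 166 ± 16.4 (n = 4) with IgG, and these groups did not overlap. Its log2 fold was -0.39 ± 0.15 (edgeR, adjusted p = 0.249). Mmp13 averaged 1.88 ± 1.13 CPM (n = 4) against 5.92 ± 5.99 (n = 4), a log2 fold of -1.74 ± 0.73 (edgeR, adjusted p = 0.3). The intervals of the inhibitors reached from -0.45 to 0.16 for Timp1, -0.29 to 0.23 for Timp2 and -0.50 to 0.12 for Timp3. The median of well-expressed genes was itself -0.19 in this comparison.

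After IL-17 none of the 9 was called between antibodies, against 0.0673% of all genes in either direction (10 higher in the Arid5a RIP and 2 lower). An unadjusted p below 0.05 with edgeR was found for 2 of the 9, against 1596 of all 17835 genes. Timp1 averaged 197 ± 7.77 CPM (n = 4) in the Arid5a RIP and 148 ± 26.3 (n = 3) in the IgG RIP, without overlap. Timp1 had a log2 fold of 0.41 ± 0.16 (edgeR, adjusted p = 0.448). Timp3 averaged 594 ± 108 (n = 4) against 467 ± 130 (n = 3), with overlapping groups and a log2 fold of 0.35 ± 0.17 (edgeR, adjusted p = 0.555). Timp2 averaged 543 ± 70.8 (n = 4) against 471 ± 16.0 (n = 3), a log2 fold of 0.20 ± 0.14 (adjusted p = 0.700). Adamts5 averaged 89.6 ± 13.0 (n = 4) against 87.4 ± 10.2 (n = 3), and its log2 fold of 0.04 ± 0.16 had an interval of -0.28 to 0.36. The count of called members was 0 under each alternative run in both antibody comparisons, including DESeq2 and limma voom.

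**Figure D5:**
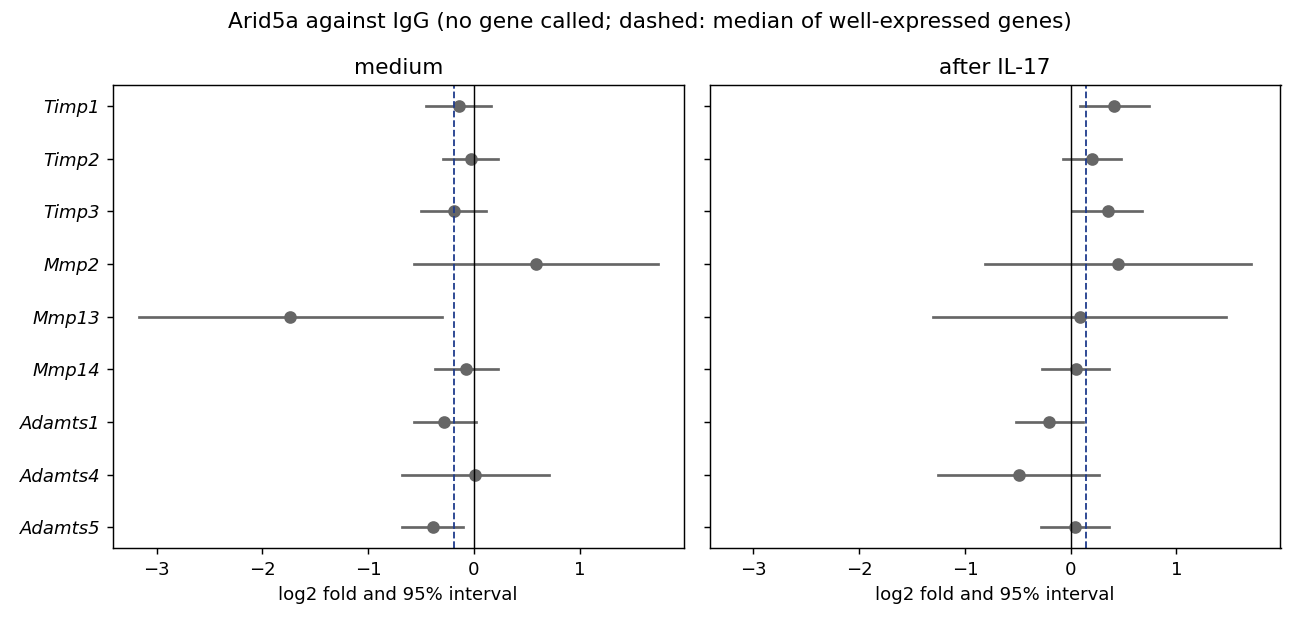
Log2 fold of Arid5a against IgG RIP with its 95% interval for the 9 tested genes, in medium and after IL-17, with the median of well-expressed genes dashed. No gene is called in either panel; Adamts5 and Mmp13 in medium and Timp1 and Timp3 after IL-17 have intervals that leave out 0.

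Whether IL-17 changed these transcripts differently in the 2 RIPs was tested as an interaction. None of the 9 was called, against 0.976% of all genes. An unadjusted p below 0.05 with edgeR was found for 2 of the 9, against 2905 of all 17835 genes. The difference of log2 folds was 0.55 ± 0.23 for Timp1 (edgeR, adjusted p = 0.208) and 0.53 ± 0.23 for Timp3 (adjusted p = 0.243). The median over well-expressed genes was 0.34 in the same test. For Adamts5 the difference was 0.43 ± 0.22 (adjusted p = 0.323), with an interval that just reaches 0. The call of Timp1 and Timp2 in the Arid5a RIP alone is therefore not shown to be a difference between the RIPs.

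Some members share genomic ground with other genes, and the strand setting of the counting is not given. Timp1 overlaps Syn1, Timp2 overlaps Cep295nl and Timp3 overlaps Syn3. Syn1 stood at group means of 2.48 to 4.54 CPM and Cep295nl at 15.9 to 22.0, both far below their partners. Syn3 averaged 30.3 CPM in Arid5a RIP in medium and 16.8 after IL-17, a log2 fold of -0.86 ± 0.31 (adjusted p = 0.0965), opposite in sign to Timp3. Mmp2 and Adamts5 overlap the lncRNA models Gm45472 and Gm46558.

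Across the 15 libraries, TMM-scaled log2 CPM of Timp2 and Timp3 correlated with a Pearson r of 0.81, Timp1 and Timp3 with 0.70 and Timp1 and Timp2 with 0.66. Adamts1 and Adamts5 gave 0.74, while Timp3 and Adamts5 gave -0.77. These values describe libraries that share treatments, scaling and depth. Among 10586 candidate genes, the profiles most like Timp3 were those of Vcpip1 (r = 0.946), Pde8a (0.936) and Itga5 (0.930), an integrin subunit that binds fibronectin. Nearest to Timp2 were Rbm26 (0.929), Pmepa1 (0.915) and Rpl4 (0.913), and nearest to Timp1 were Ascc3 (0.887), Gnpnat1 (0.887) and Klhdc2 (0.873). Nearest to Adamts5 were Bmp4 (0.886), a growth factor gene, Tsc22d2 (0.884) and the immediate early gene Egr1 (0.877).

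Members of these families outside the 10 gave no call with the TMM-scaled edgeR fit of all 15 libraries. Of 20 other Timp and Mmp genes in the table, 12 were tested and 0 were called in any of the 5 comparisons with that fit. Of these 12, 0 had an unadjusted p below 0.05 with edgeR and DESeq2 called 0. Limma voom called 2, both after IL-17 in the Arid5a RIP, where it called 7442 of all 17835 genes. On average 9 of the 20 were under 1 FPKM, and the highest were Mmp23 at 19.7 FPKM and Mmp19 at 8.03. Of 22 other Adamts and Adamts-like genes, 22 were tested and 0 were called in any comparison with that edgeR fit. After IL-17 in the Arid5a RIP, 7 of the 22 had an unadjusted p below 0.05 with edgeR, against 3972 of all 17835 genes. DESeq2 called 2 of the 22, against 1367 of all genes, and limma voom 15, against 7442. The median log2 fold of the 22 was -0.81, against -0.12 over all genes. In that comparison the summed receptor transcripts named above ranged from 3201 to 4697 CPM in medium and from 1389 to 4008 after IL-17. The endothelial and epithelial markers ranged from 46.7 to 68.7 CPM in medium and from 16.0 to 54.9 after IL-17. The part of these low-level transcripts in the Adamts values was not tested. The most abundant of the list were Adamts2, a procollagen peptidase, at 12.5 FPKM, and Adamtsl4 at 7.89. Adamts2 had a log2 fold of 0.37 ± 0.17 in the Arid5a RIP (adjusted p = 0.188).

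Among 18 tested activators, inhibitors and partners of metalloproteinases, 3 were called higher after IL-17 in the Arid5a RIP and 0 lower. Over all genes 4.84% were called higher and 0.813% lower, a split that scaling moves. Cd44 and Bsg are described here. Cd44, the hyaluronan receptor, rose by 0.64 ± 0.16 on the log2 scale (adjusted p = 0.0134). Bsg, an inducer of metalloproteinases and the most abundant of the list at 511 FPKM, rose by 0.43 ± 0.13 (adjusted p = 0.0468). Cd44 was not called under the other scalings of edgeR (upper quartile, totals, well-expressed genes) or on FPKM, nor Bsg under these and 3 other alternatives. Leaving out Arid5a medium 2 or 3, or Arid5a IL-17 1, 2 or 3, also ended the Cd44 call (adjusted p up to 0.068). The Bsg call was lost without any 1 Arid5a medium library, IgG medium 4, or Arid5a IL-17 1, 2 or 3 (up to 0.192). With IgG, 1 of the 18 was called, Cd44 (0.74 ± 0.17, adjusted p = 0.0364), against 0.258% higher and 0.235% lower of all genes. The Cd44 call was kept in 7 of the 15 fits that leave out 1 library. It was lost without IgG medium 2 or 4, IgG IL-17 2 or 4, Arid5a medium 4, or Arid5a IL-17 1, 2 or 3 (adjusted p up to 0.251).

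Large proteoglycans that Adamts enzymes cleave and the link protein gene Hapln1 gave 5 tested genes. Of these 1, Vcan (versican), was called higher after IL-17 in the Arid5a RIP, against 4.84% of all genes. The median log2 fold of the 5 was -0.72, against -0.12 over all genes, and limma voom called 4, against 7442 of all genes. The other tested genes had lower means after IL-17, at no more than 67 counts in any library. Acan went from 11.1 to 6.98 CPM, Ncan from 14.9 to 9.05, Bcan from 5.75 to 2.43 and Hapln1 from 3.5 to 1.68. Vcan stood at 333 ± 18.5 CPM (n = 4) in medium and 531 ± 86.2 (n = 4) after IL-17. Its log2 fold was 0.67 ± 0.13 (adjusted p = 0.00142). The call was lost with factors from well-expressed genes and on both FPKM scales, with adjusted p of up to 0.119. With IgG it averaged 391 ± 32.7 (n = 4) and 477 ± 35.9 (n = 3), a log2 fold of 0.28 ± 0.14 (adjusted p = 0.457). Versican stood at 43.0 FPKM on average, and the next in the list, Ncan, at 1.72.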

How the data were processed

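Per the submitters' processing notes, STAR 2.7.9, RSEM 1.3.1, DESeq2 1.36.0, R 4.3.0 and the mm10 build were used; which tool did what, the gene annotation and how strand was handled are not given in the sources used here. The authors deposited expected counts, read here as unnormalised because 2.66% to 10.3% of values per library were not whole and totals differed, and FPKM for the same 25239 genes. Symbols were matched to a RefSeq table of GRCm38.p6 (25041, 99.22%), which gave the coordinates. Expected counts were rounded, filtered with filterByExpr (17835 genes), scaled with TMM factors and fitted as 4 group means over 15 libraries with robust quasi-likelihood models in edgeR 4.0.16 (R 4.3.3). The common biological coefficient of variation was 0.341. Adjusted p-values are Benjamini-Hochberg values over all genes tested within a comparison, with a threshold of 0.05. CPM is TMM-scaled. The SE is that implied by the fit's F, and 95% intervals are the log2 fold ± 1.96 SE. The fitting procedure was tested on simulated counts.

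All 10 members are named in every comparison. From the other lists, the genes called in at least 1 comparison and the 2 with the highest mean FPKM are named, and for each called member the 3 genes with the highest Pearson r over 15 libraries (average log2 CPM of at least 3, symbols other than Gm or Rik). Some results that this rule would name are not reported here. The members and lists were chosen with earlier results of these data known. Alternatives were upper-quartile factors, library totals, TMM factors from well-expressed genes, DESeq2 1.42.0, limma 3.58.1 voom with quality weights, limma on log2(FPKM + 1) or log2(FPKM + 0.1), omission of the filter, a filter of 10 counts or more in all libraries of some group, fits restricted to the groups compared, a block for replicate number, each library left out, and IgG medium 2 with IgG IL-17 4 left out.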

Additional observations from a re-analysis of the deposited data

Results flagged for a closer look

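Among 30 combinations of a member and a group of 4 libraries, 2 held a library far from the rest of its group by Dixon's test, which flags about 1 in 20 by chance. Mmp3 stood at 2.53 CPM in IgG medium 3 and at 0 to 0.32 in the other libraries of that group. Mmp14 stood at 124 CPM in IgG medium 4 and at 179 to 188 in the others. Groups of 3 were not tested.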

How the results depend on the processing

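Each result was recomputed under 12 alternatives and with each of the 15 libraries left out. Members called after IL-17 in the Arid5a RIP numbered 4, and 2 with upper-quartile factors, 2 with library totals, 7 with limma voom and 2 on each FPKM scale. With 1 library left out they numbered 1 to 6. Factors from well-expressed genes changed which members were called. Timp3 was then called higher and Adamts1, Adamts4 and Adamts5 lower, while Timp1 and Timp2 were not called. In the IgG RIP they numbered 2, and 0 with only the libraries compared and 1 on each FPKM scale; with 1 library left out, 1 to 2. No member was called between antibodies or for the interaction under any alternative. Over all genes, calls in the Arid5a RIP after IL-17 were 1008, from 75 on log2(FPKM + 0.1) and 99 on log2(FPKM + 1) to 7442 with limma voom. In the IgG RIP 88 genes were called, from 16 with only the libraries compared to 320 with DESeq2. For the antibody in medium 112 genes were called (0 with factors from well-expressed genes, 348 with DESeq2), after IL-17 12 (0 and 71, and 479 with limma voom), and for the interaction 174 (0 and 405, and 1653 with limma voom). With 1 library left out the counts ran from 308 (without Arid5a IL-17 2) to 2257 (without Arid5a IL-17 4) for IL-17 in the Arid5a RIP and from 43 (without IgG IL-17 2) to 257 (without IgG medium 1) in the IgG RIP. For the antibody they ran from 0 (without IgG medium 3) to 350 (without IgG medium 1) in medium and from 2 (without IgG IL-17 4) to 76 (without Arid5a IL-17 4) after IL-17. For the interaction they ran from 0 (without Arid5a IL-17 1) to 715 (without Arid5a IL-17 4).

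Some uncalled log2 folds changed sign. In what follows the order is upper-quartile factors, library totals, factors from well-expressed genes, log2(FPKM + 1) and log2(FPKM + 0.1). For the antibody in medium, Timp1 gave 0.01, 0.04 and 0.04 under the first 3, Timp2 gave 0.12, 0.15, 0.15, 0.15 and 0.15 (0.01 with only the libraries compared), and Mmp14 gave 0.08, 0.11, 0.11, 0.10 and 0.11. After IL-17, Mmp13 gave -0.02, -0.03, -0.08, -0.04 and -0.06, Mmp14 gave -0.07, -0.08, -0.11, -0.03 and -0.03, and Adamts5 gave -0.06, -0.08, -0.12, -0.06 and -0.07. For the interaction, Timp2 gave -0.02, -0.06, -0.10, -0.04 and -0.04, Mmp14 gave -0.15, -0.19, -0.23, -0.14 and -0.14, and Adamts1 gave -0.16, -0.20, -0.24, -0.14 and -0.15. Mmp2 in the IgG RIP after IL-17 gave 0.44 on log2(FPKM + 0.1). Without IgG medium 2 and IgG IL-17 4, Mmp13 in the IgG RIP gave -0.56 and Adamts1 between antibodies after IL-17 gave 0.02. The causes were not tested.

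With 1 library left out, the antibody folds in medium ran from -0.11 to 0.06 for Timp2 and -0.19 to 0.14 for Adamts4. After IL-17 they ran from -0.34 to 0.63 for Mmp13, -0.02 to 0.20 for Mmp14 and -0.03 to 0.14 for Adamts5. In the IgG RIP the IL-17 folds ran from -0.02 to 0.23 for Timp1, -0.70 to 0.02 for Mmp2 and -0.22 to 0.77 for Mmp13, and the interaction from -0.47 to 0.29 for Mmp2 and -0.10 to 0.29 for Adamts1.

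Libraries with the same replicate number were no more alike than others. Deviations from the group means of 21 same-numbered pairs correlated with r from -0.126 to 0.195 (median -0.012), against a median of -0.002 for 63 other pairs. Groups of 3 or 4 libraries cannot decide whether same-numbered libraries shared a culture or day. With the replicate block 3 members were called in the Arid5a RIP and 2 in the IgG RIP; Adamts5 in the Arid5a RIP then had an adjusted p of 0.0729. Depth limits Mmp2, with at most 33 counts in a library, and Mmp3, with at most 7.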
